A study of Mus musculus with 6 samples.

Results

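The 10 genes described here encode transcription factors of cranial neural crest mesenchyme: Prrx1, Prrx2, Twist1, Twist2, Tfap2a, Tfap2b, Alx1, Six2, Nr2f1 and Nr2f2. They were chosen by name, and all 10 were found among the 49492 gene rows of the count table. Soft palates of mouse embryos (Mus musculus) at E14.5 were profiled by RNA-seq in 3 Dlx5-/- libraries and 3 wild type control libraries. The tissue was the posterior part of the palate. The labels give Dlx5-/- as the genotype and name no Cre driver, second allele, strain or treatment for either group. They do not state whether each library came from its own embryo. The p-values therefore cover the spread among these 6 libraries, some of which may be technical.

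Cranial neural crest cells leave the dorsal neural tube, migrate into the face and pharyngeal arches, and form most of the connective tissue, cartilage and bone of the palate. AP-2 and Twist proteins act early on this path, while the Prrx, Alx and Six2 homeodomain proteins act in the facial mesenchyme that the crest forms. Dlx5, also a homeodomain protein, gives arch crest cells a ventral, lower jaw position, and in zebrafish and mouse the Nr2f nuclear receptors promote upper jaw identity. The comparison addresses how these general mesenchyme factors stood in soft palates without Dlx5.

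Dlx5 itself was at 0.829, 1.63 and 1.28 CPM (read counts scaled to a common library size with TMM factors) in Dlx5-/- libraries, against 26.1, 15.7 and 16.2 CPM in controls. The groups lay far apart, and every library matched its genotype. Libraries held 6891798 to 11922442 estimated counts. Dlx5-/- replicate 3 stood apart, with a mean correlation of 0.959 with the other libraries, against 0.970 to 0.976 for the rest. Its 9 mature brain markers summed to 367 CPM, against 41.0 and 30.2 CPM in Dlx5-/- replicates 1 and 2 and 30.9 to 41.4 CPM in controls, and none of the 9 was at 0 in all libraries. All 14 mesenchyme markers passed the filter of a mean of 1 CPM, which does not identify the tissue as palate. They summed to 9452, 12944 and 7691 CPM in Dlx5-/- libraries and to 11371, 10476 and 11646 CPM in controls. In bulk tissue, fewer cells of a type and less RNA per cell cannot be told apart.

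Promoter windows are shown for Prrx1 with Prrx2 and Nr2f1 with Nr2f2, related pairs in which 1 gene had an estimate above 0 and the other below. The windows come from RefSeq (GRCm38.p6) and run 5′ to 3′ on the gene's strand, from 250 bases before the gene start to 50 after it. Capitals mark TAATTA, a core bound by many homeodomain proteins, and GCCNNNGGC, the form bound by AP-2 proteins. Both motifs read the same on either strand, and no matches overlapped.
Prrx1: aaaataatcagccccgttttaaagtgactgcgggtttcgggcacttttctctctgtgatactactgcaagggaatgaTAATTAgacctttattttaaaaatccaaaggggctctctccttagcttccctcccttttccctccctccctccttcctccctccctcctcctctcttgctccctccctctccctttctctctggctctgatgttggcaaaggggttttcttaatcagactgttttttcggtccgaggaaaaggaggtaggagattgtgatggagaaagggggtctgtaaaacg
Prrx2: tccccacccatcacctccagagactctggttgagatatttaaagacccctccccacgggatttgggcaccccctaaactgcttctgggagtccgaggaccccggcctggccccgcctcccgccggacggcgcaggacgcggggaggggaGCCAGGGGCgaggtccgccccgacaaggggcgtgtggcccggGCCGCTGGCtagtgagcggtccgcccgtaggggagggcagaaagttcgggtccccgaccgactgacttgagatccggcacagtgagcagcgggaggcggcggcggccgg
Nr2f1: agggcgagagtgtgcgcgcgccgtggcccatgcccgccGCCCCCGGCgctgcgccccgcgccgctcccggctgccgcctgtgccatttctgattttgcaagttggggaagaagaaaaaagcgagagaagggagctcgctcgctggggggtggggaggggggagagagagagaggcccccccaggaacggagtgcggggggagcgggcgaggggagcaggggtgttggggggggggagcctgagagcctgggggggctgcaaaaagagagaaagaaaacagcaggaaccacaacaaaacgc
Nr2f2: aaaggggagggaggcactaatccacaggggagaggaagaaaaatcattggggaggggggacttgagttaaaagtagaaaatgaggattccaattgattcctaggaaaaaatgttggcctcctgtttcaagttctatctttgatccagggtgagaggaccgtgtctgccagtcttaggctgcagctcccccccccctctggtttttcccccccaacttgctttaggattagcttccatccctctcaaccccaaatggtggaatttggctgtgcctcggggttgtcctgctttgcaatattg

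The Prrx1 window is chr1:163313601-163313900 on the minus strand and holds 1 TAATTA, 173 bases before the start. The Prrx2 window is chr2:30845117-30845416 on the plus strand, at a RefSeq start inside the longer GENCODE gene, and holds 2 GCCNNNGGC matches, 101 and 59 bases before the start. These relatives thus share neither motif in the windows shown. G and C made up 47.7% of the Prrx1 window and 70.3% of the Prrx2 window, beside a mean of 53.8% over all promoter windows. The Nr2f1 window, the upstream of 2 listed for this gene, is chr13:78198824-78199123 on the minus strand and holds 1 GCCNNNGGC, 212 bases before the start. The Nr2f2 window, chr7:70366697-70366996 on the minus strand, holds neither motif. RefSeq gave 11 windows for 9 of the 10 genes. Among the windows not shown, TAATTA was found in 1 of the 2 of Tfap2a and GCCNNNGGC in that of Twist2. Of all 32851 promoter windows, 5.29% held TAATTA and 16.6% held GCCNNNGGC.

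None of the 10 factors passed the test between genotypes (edgeR's quasi-likelihood test, Benjamini-Hochberg adjusted p under 0.05 over 16218 genes). Dlx5 was the 1 gene called, or 0.00617% of those tested. All 10 factors had passed the filter of a mean of 1 CPM. At an unadjusted p under 0.05, where 12.8% of all genes stood, 4 of the 10 were higher in Dlx5-/-: Prrx1, Twist1, Twist2 and Nr2f1. No factor was lower at that level, beside 5.6% of all genes higher and 7.23% lower. These 4 had estimates above 0, as did 52.5% of all genes, and the other 6 had estimates below 0.

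Their median log2 fold change (Dlx5-/- over control) was -0.11, beside 0.01 over all genes, and it was 0.04 without Dlx5-/- replicate 3. Leaving that library out called 1.01% of all genes in either direction and 0.074% as higher, and still 0 of the 10 factors. With limma-trend 0.598% of genes were called, 0.0555% as higher, and again 0 factors. The 10 genes together summed to 872, 765 and 782 CPM in Dlx5-/- libraries and to 698, 719 and 754 CPM in controls. Every Dlx5-/- sum lay above every control sum, but narrowly, at 765 CPM in Dlx5-/- replicate 2 against 754 CPM in control replicate 3. Prrx1 was the only factor taken out of the sum, so its part was not set against that of the others. Without Prrx1 the sums were 598, 481 and 552 CPM in Dlx5-/- libraries and 502, 551 and 540 CPM in controls, and the groups overlapped.

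**Figure D1:**
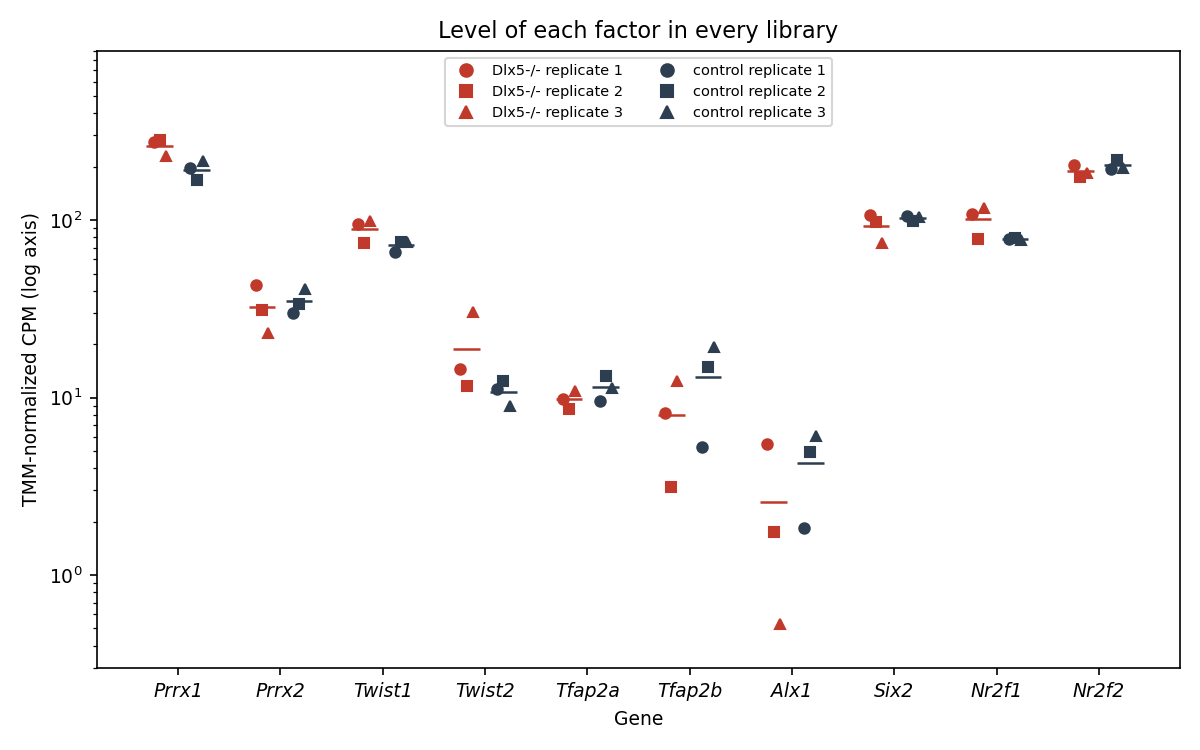
TMM-normalized CPM of each factor (log axis) in the 3 Dlx5-/- libraries (red, left) and the 3 control libraries (dark, right); each symbol is 1 library and each bar a group mean. Of the 10 factors only Prrx1 has groups that do not overlap, at 229.7 to 284.2 CPM in Dlx5-/- and 168.4 to 214 CPM in controls.

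Prrx1 and Prrx2 encode paired-related homeodomain proteins of facial and limb mesenchyme that act in part redundantly in the mouse skull and jaw. Prrx1 (chr1:163245119-163313710, minus strand, GRCm38, GENCODE M21) measured 275, 284 and 230 CPM in Dlx5-/- libraries, against 196, 168 and 214 CPM in controls. Every Dlx5-/- library lay above every control library. Prrx1 was the 1 factor of 10 without overlap, where 19.2% of all genes had none, 9.48% with Dlx5-/- higher and 9.71% with Dlx5-/- lower. Its log2 fold change was 0.45 (SE 0.12; 95% interval 0.18 to 0.72; adjusted p = 0.149, edgeR).

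The Prrx1 estimate lay between 0.36 and 0.53 with any 1 library left out, while its call depended on the tool and the filter. Without Dlx5-/- replicate 3 it was 0.53 (adjusted p = 0.0545, edgeR). DESeq2 called Prrx1 higher at the same 0.45 (adjusted p = 0.0117), among 3.09% of genes called in either direction and 0.728% called higher. Without the filter edgeR also called it, at 0.46 (adjusted p = 0.0140), among 2.27% of 29870 genes called and 0.817% called higher. Over 15 alternatives the adjusted p of Prrx1 ran from 0.0117 to 0.456.

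Prrx2 (chr2:30834972-30881251, plus strand) measured 42.9, 31.0 and 23.0 CPM in Dlx5-/- libraries, against 29.8, 33.8 and 41.0 CPM in controls. The groups overlapped, with the highest and the lowest value both in Dlx5-/- libraries. At -0.11 its log2 fold change was smaller than its SE of 0.22 (95% interval -0.62 to 0.39; adjusted p = 0.881, edgeR). The sign turned without Dlx5-/- replicate 3, to 0.08, and without control replicate 3, to 0.01.

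Twist1 and Twist2 encode basic helix-loop-helix proteins; in the mouse Twist1 is required in cranial mesenchyme and sutures, and Twist2 acts in dermis and restrains bone differentiation. Twist1 (chr12:33957671-33959829, plus strand) measured 95.2, 74.2 and 98.4 CPM in Dlx5-/- libraries, against 66.5, 75.1 and 74.9 CPM in controls. Dlx5-/- replicate 2 lay among the controls, and the other Dlx5-/- libraries lay above them all. The estimate for Twist1 was 0.31 on the log2 scale (SE 0.12; 95% interval 0.04 to 0.58; adjusted p = 0.322, edgeR), and 0.23 to 0.41 with 1 library left out.

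Twist2 (chr1:91801461-91848028, plus strand) measured 14.6, 11.6 and 30.4 CPM in Dlx5-/- libraries, against 11.1, 12.3 and 8.91 CPM in controls. Dlx5-/- replicate 3 stood far above the other libraries, replicate 1 just above the controls and replicate 2 among them. The log2 fold change of 0.81 (SE 0.34; adjusted p = 0.373, edgeR) had a 95% interval of 0.02 to 1.6. Without Dlx5-/- replicate 3, the library with 367 CPM of mature brain markers, it was 0.26 (adjusted p = 0.653, edgeR); the part of these markers in the Twist2 value was not tested.

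The antisense gene Gm29100 shares 1477 exonic bases with Twist2 and held 33 counts over the Dlx5-/- libraries and 10 over the controls. No Twist2 value was whole in any of the 6 libraries, whereas all 6 of Twist1 were. Use of strand in the counting is unknown here, so reads of Twist2 and Gm29100 may not have been told apart.

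Tfap2a and Tfap2b encode AP-2 proteins, which act early in neural crest specification, and Tfap2a is also made in surface ectoderm. Tfap2a (chr13:40715302-40738376, minus strand) measured 9.83, 8.59 and 10.9 CPM in Dlx5-/- libraries, against 9.61, 13.3 and 11.4 CPM in controls. The groups overlapped, although all 3 Dlx5-/- values lay below the control mean of 11.4 CPM. Its log2 fold change was -0.22 (SE 0.19; 95% interval -0.66 to 0.21; adjusted p = 0.680, edgeR), and it was -0.34 without control replicate 1 and -0.09 without control replicate 2. The 12 epithelial markers summed to 315, 342 and 406 CPM in Dlx5-/- libraries and to 329, 385 and 540 CPM in controls, none of them at 0 throughout; their part in the Tfap2a value was not tested. The antisense gene Gm26688 shares 380 exonic bases with Tfap2a and held 9 counts over the Dlx5-/- libraries and 6 over the controls.

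Tfap2b (chr1:19208914-19238576, plus strand) measured 8.17, 3.15 and 12.5 CPM in Dlx5-/- libraries, against 5.29, 14.9 and 19.3 CPM in controls. Values spread widely within each genotype, with a coefficient of variation of 58.7% in Dlx5-/- and 54.4% in controls. An estimate of -0.70 on the log2 scale therefore came with an SE of 0.54 and a 95% interval of -1.94 to 0.53 (adjusted p = 0.644, edgeR). With 1 library left out it was between -1.22, without Dlx5-/- replicate 3, and -0.34, without Dlx5-/- replicate 2.

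Alx1 encodes a homeodomain protein of frontonasal and periocular crest mesenchyme. Alx1 (chr10:102998707-103030215, minus strand) measured 5.45, 1.74 and 0.528 CPM in Dlx5-/- libraries, against 1.84, 4.95 and 6.04 CPM in controls. These values rest on 46, 16 and 7 counts in Dlx5-/- libraries and on 17, 61 and 42 counts in controls. Each genotype held both high and low libraries, and the highest of the 6 was 11.4 times the lowest. The estimate of -0.77 (95% interval -2.48 to 0.94; adjusted p = 0.729, edgeR) became -1.95 without Dlx5-/- replicate 1 and -0.25 without Dlx5-/- replicate 3.

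Six2 encodes a homeodomain protein best known for keeping mouse kidney progenitors undifferentiated, and it is also made in facial mesenchyme. Six2 (chr17:85684277-85688274, minus strand) measured 107.5, 96.9 and 74.1 CPM in Dlx5-/- libraries, against 105.5, 99.0 and 104.2 CPM in controls. Dlx5-/- replicate 1 was the highest library, replicate 2 lay just below the controls and replicate 3 well below them. The log2 fold change of -0.15 (SE 0.13; 95% interval -0.45 to 0.15; adjusted p = 0.689, edgeR) was -0.01 without Dlx5-/- replicate 3. That library also had the lowest mesenchyme marker sum, 7691 CPM. The markers did not all go this way there. Col1a1, a collagen, was at its lowest, 1072 CPM, and Pdgfra, another of these markers, at its highest, 443 CPM. The part of these in the Six2 value was not tested.

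Nr2f1 and Nr2f2 encode the orphan nuclear receptors COUP-TFI and COUP-TFII, which also act in brain patterning. Nr2f1 (chr13:78188973-78199757, minus strand) measured 108.4, 78.3 and 117 CPM in Dlx5-/- libraries, against 77.8, 79.6 and 77.2 CPM in controls. Controls were nearly level, with a coefficient of variation of 1.62%, against 20.1% in Dlx5-/- libraries. Dlx5-/- replicates 1 and 3 stood above all controls and replicate 2 among them. The log2 fold change was 0.37 (SE 0.14; 95% interval 0.05 to 0.69; adjusted p = 0.311, edgeR). It was 0.25 without Dlx5-/- replicate 3 (adjusted p = 0.448, edgeR) and 0.52 without Dlx5-/- replicate 2 (adjusted p = 0.0740, edgeR). The part of the mature brain markers of replicate 3 in the Nr2f1 value was not tested.

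Nr2f2 (chr7:70351944-70366735, minus strand) measured 205.6, 175.4 and 185 CPM in Dlx5-/- libraries, against 194.4, 218 and 197.4 CPM in controls. The groups overlapped, with Dlx5-/- replicates 2 and 3 below the controls and replicate 1 among them. Nr2f2 had the narrowest range of the 10, its highest library at 1.24 times its lowest. Its log2 fold change was -0.11 (SE 0.09; 95% interval -0.32 to 0.10; adjusted p = 0.675, edgeR), and -0.17 to -0.05 with 1 library left out.

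Both Nr2f genes overlap a gene on the opposite strand, and none of their values was whole in any library. A830082K12Rik, which shares 123 exonic bases with Nr2f1, averaged 23.2 ± 4.45 CPM in Dlx5-/- and 20.1 ± 1.22 CPM in control libraries (SD, n = 3 each). B130024G19Rik, which shares 643 exonic bases with Nr2f2, averaged 1.72 ± 0.846 CPM in Dlx5-/- and 3.41 ± 0.442 CPM in control libraries (SD, n = 3 each). Its groups did not overlap (log2 fold change -0.95; adjusted p = 0.379, edgeR).

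**Figure D2:**
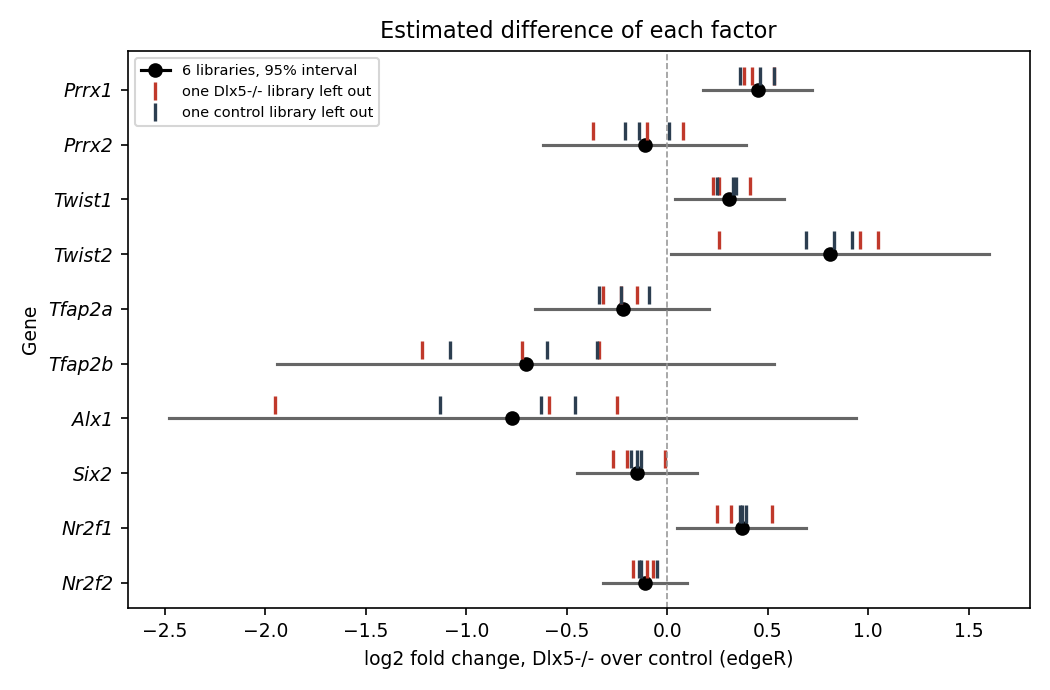
Log2 fold change of each factor, Dlx5-/- over control, from edgeR: dots and lines give the estimate and 95% interval over 6 libraries, and ticks the estimates with 1 library left out (red, a Dlx5-/- library; dark, a control). The intervals of Prrx1, Twist1, Twist2 and Nr2f1 lie above 0, and the leftmost tick of Twist2, at 0.26, is that without Dlx5-/- replicate 3.

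Ratios of related genes within a library depend little on depth or scaling, and they were compared between genotypes for 4 pairs. The log2 ratio of Nr2f1 to Nr2f2 (from CPM + 0.5) was -0.92, -1.16 and -0.66 in Dlx5-/- libraries, against -1.32, -1.45 and -1.35 in controls. Every Dlx5-/- library lay above every control. On the linear scale, Nr2f1 had 0.448 to 0.634 CPM for each CPM of Nr2f2 in Dlx5-/- libraries and 0.367 to 0.402 in controls. The means differed by 0.46 on the log2 scale (two-sided exact permutation p = 0.1, the smallest that 3 against 3 libraries allow; 0.4 adjusted over 4 pairs). With 1 library left out the difference was 0.33 to 0.58.

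The log2 ratio of Prrx1 to Prrx2 was 2.67, 3.18 and 3.29 in Dlx5-/- libraries, against 2.70, 2.30 and 2.37 in controls. Dlx5-/- replicate 1 lay just below control replicate 1, and the other Dlx5-/- libraries lay above all controls. The means differed by 0.59 (two-sided exact permutation p = 0.2; 0.4 adjusted over 4 pairs).

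The log2 ratio of Twist1 to Twist2 was 2.67, 2.62 and 1.68 in Dlx5-/- libraries, against 2.53, 2.56 and 3.00 in controls. Only Dlx5-/- replicate 3 lay below the controls. The difference of -0.37 (two-sided exact permutation p = 0.6; 0.6 adjusted over 4 pairs) was -0.05 without that library. For Tfap2a to Tfap2b the groups were mixed, with log2 ratios of 0.46 ± 0.77 in Dlx5-/- and -0.03 ± 0.78 in control libraries (SD, n = 3 each; two-sided exact permutation p = 0.5; 0.6 adjusted over 4 pairs). Their difference of 0.49 was 0.07 without Dlx5-/- replicate 2, 0.14 without control replicate 3, 0.81 without Dlx5-/- replicate 3 and 0.91 without control replicate 1.

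**Figure D3:**
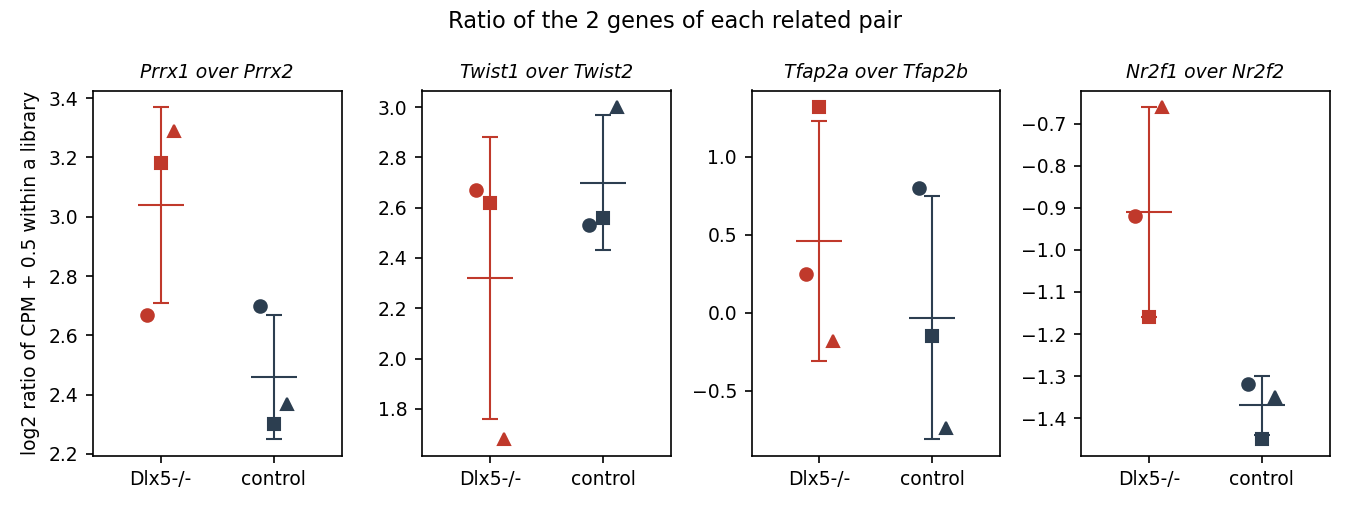
Log2 ratio of the 2 genes of each related pair within a library (CPM + 0.5), with Dlx5-/- (red) left of control (dark); circles, squares and triangles are replicates 1 to 3, and bars give the mean and SD. Each panel has its own axis. Groups are separate for Nr2f1 over Nr2f2, at -1.16 to -0.66 in Dlx5-/- and -1.45 to -1.32 in controls, and overlap for the other pairs.

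Levels of different genes were compared as CPM per kilobase of merged exons (GENCODE M21). Twist1 and Six2 led in both genotypes on this scale. Twist1 was at 54.8 ± 8.07 in Dlx5-/- and 44.3 ± 3.01 in control libraries, and Six2 at 43.8 ± 8.07 in Dlx5-/- and 48.6 ± 1.61 in control libraries (SD, n = 3 each). Six2 was above Twist1 in all 3 controls and in Dlx5-/- replicate 2, by a narrow margin in replicate 2 of each genotype. Twist1 was above Six2 in Dlx5-/- replicates 1 and 3. The mean of Twist1 exceeded that of Six2 by 11.02 CPM per kilobase in Dlx5-/- libraries, and by 3.79 without Dlx5-/- replicate 3. In Dlx5-/- libraries Prrx1, Nr2f2, Nr2f1 and Prrx2 followed at 23.8 ± 2.63, 21.9 ± 1.79, 19.9 ± 4.0 and 16.5 ± 5.10 CPM per kilobase, each within the larger SD of its neighbour in this order. In controls Nr2f2 led these 4 at 23.6 ± 1.49, beyond the SD of Prrx2 at 17.8 ± 2.89, while Prrx1 at 17.4 ± 2.08 and Nr2f1 at 15.4 ± 0.248 lay within it. Twist2 came next, at 5.94 ± 3.18 in Dlx5-/- and 3.4 ± 0.547 in controls. Tfap2a was at 2.0 CPM per kilobase in Dlx5-/- and 2.33 in controls, Tfap2b at 1.25 in Dlx5-/- and 2.07 in controls, and Alx1, the lowest, at 0.447 in Dlx5-/- and 0.743 in controls.

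As shares of the summed length-scaled level of the 10 genes, Prrx1, Six2 and Nr2f2 had groups that did not overlap. Such shares have no counterpart over all genes, so this count has no background to be set against. In CPM the groups of Six2 and Nr2f2 overlapped. Prrx1 took 11.8%, 14.7% and 11.2% in Dlx5-/- libraries, against 10.5%, 8.64% and 10.6% in controls. Six2 took 24.2%, 26.2% and 18.8% in Dlx5-/- libraries, against 29.6%, 26.6% and 26.9% in controls. Nr2f2 took 11.4%, 11.6% and 11.5% in Dlx5-/- libraries, against 13.4%, 14.4% and 12.5% in controls. The closest libraries of the 2 genotypes were near each other for Six2 (26.2% in Dlx5-/-, 26.6% in control) and Prrx1 (11.2% in Dlx5-/-, 10.6% in control). The share of Prrx1 was higher in Dlx5-/- and those of Six2 and Nr2f2 were lower; shares of a sum are not independent of each other. Merged exons count all annotated isoforms, 11066 bases for Prrx1 against 1628 for Twist1. Without length scaling the difference of means was 6.07 percentage points for Prrx1, against 2.64 with it, and -4.73 for Nr2f2, against -1.93 with it. For Six2 it was -2.74 without length scaling, against -4.66 with it. Leaving out a library moved the length-scaled difference of Six2 to -2.52 points (without Dlx5-/- replicate 3) and that of Prrx1 to 1.57 points (without Dlx5-/- replicate 2).

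Relatives from the same families held 0 called genes among the 7 of 9 that passed the filter, with a median log2 fold change of 0.07. Six5, a homeodomain relative of Six2, measured 19.9, 22.28 and 18.94 CPM in Dlx5-/- libraries, against 18.03, 18.59 and 16.24 CPM in controls. Its groups did not overlap, but the gap between them was small (log2 fold change 0.20, SE 0.12; adjusted p = 0.539, edgeR). Nr2f6, an orphan nuclear receptor related to Nr2f1 and Nr2f2, averaged 27.3 ± 2.30 CPM in Dlx5-/- and 23.6 ± 2.30 CPM in control libraries (SD, n = 3 each), with overlapping groups (log2 fold change 0.20, SE 0.12; adjusted p = 0.522, edgeR).

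Cofactors and partners of the factors held 0 called genes among the 21 of 22 that passed the filter, with 15 estimates above 0, 6 below and a median of 0.12. At an unadjusted p under 0.05, 4 were higher and 1 was lower, beside 5.6% of all genes higher and 7.23% lower. DESeq2 called 4 (Tcf3, Tcf12, Eya1 and Id4), beside 3.09% of all genes, and edgeR without the filter called 3, beside 2.27%. Tcf3, an E protein that pairs with Twist proteins on DNA, measured 144.5, 131.1 and 147.9 CPM in Dlx5-/- libraries, against 114.4, 107.4 and 104.9 CPM in controls (log2 fold change 0.37, SE 0.08; adjusted p = 0.0940, edgeR). Tcf12, another E protein, measured 152.9, 154.3 and 178.1 CPM in Dlx5-/- libraries, against 123.5, 129.2 and 129.1 CPM in controls (log2 fold change 0.35, SE 0.09; adjusted p = 0.133, edgeR). Neither gene's groups overlapped. Tcf3, Tcf12, Eya1 and Id4 were named for their small p, so their lack of overlap is no separate result. Of the 21, 5 had no overlap with Dlx5-/- higher and 1 with Dlx5-/- lower, beside 9.48% and 9.71% of all genes. Over the alternatives the adjusted p ran from 0.0122 to 0.505 for Tcf3 and from 0.0303 to 0.624 for Tcf12.

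Eya1, a phosphatase and coactivator of Six2 and its relatives, measured 65.1, 52.9 and 56.7 CPM in Dlx5-/- libraries, against 47.9, 35.7 and 34.2 CPM in controls. Again the groups did not overlap (log2 fold change 0.57, SE 0.14; adjusted p = 0.135, edgeR). Id4, which binds helix-loop-helix proteins and keeps them from DNA, measured 31.9, 29.1 and 17.0 CPM in Dlx5-/- libraries, against 34.4, 50.1 and 54.6 CPM in controls. Here every Dlx5-/- library lay below every control (log2 fold change -0.85, SE 0.25; adjusted p = 0.195, edgeR). The 12 neuron markers were lower in the same libraries, with sums of 2507, 2159 and 1741 CPM in Dlx5-/- and 3692, 4677 and 3710 CPM in controls; their part in the Id4 value was not tested.

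Genes of crest specification and migration held 0 called genes of 13, with 9 estimates above 0, 4 below and a median of 0.12. At an unadjusted p under 0.05, 3 were higher and 0 lower, beside 5.6% and 7.23% of all genes. DESeq2 called 0 of the list, beside 3.09% of all genes, and edgeR without the filter called 2 (Sox8 and Sox9), beside 2.27%. Sox8 and Sox9, related factors of crest, glia and cartilage, had log2 fold changes of 0.71 and 0.79 (adjusted p = 0.162 and 0.237, edgeR). Sox9 measured 373.9, 298.7 and 285.9 CPM in Dlx5-/- libraries, against 264.7, 120 and 171.5 CPM in controls. Snai1, a repressor of epithelial genes in migrating crest, averaged 22.6 ± 2.28 CPM in Dlx5-/- and 17.1 ± 0.735 CPM in control libraries (SD, n = 3 each; log2 fold change 0.40; adjusted p = 0.205, edgeR). Sox8, Sox9 and Snai1 were the 3 genes of 13 without overlap, all with Dlx5-/- higher, beside 9.48% of all genes. They were named for their small p, so their lack of overlap is no separate result. Sox10, a marker of migrating crest and glia, overlapped between groups (log2 fold change 0.31; adjusted p = 0.493, edgeR). The 7 cartilage markers summed to 4110, 5327 and 1608 CPM in Dlx5-/- libraries and to 4290, 1659 and 2325 CPM in controls; their part in the Sox9 value was not tested.

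**Figure D4:**
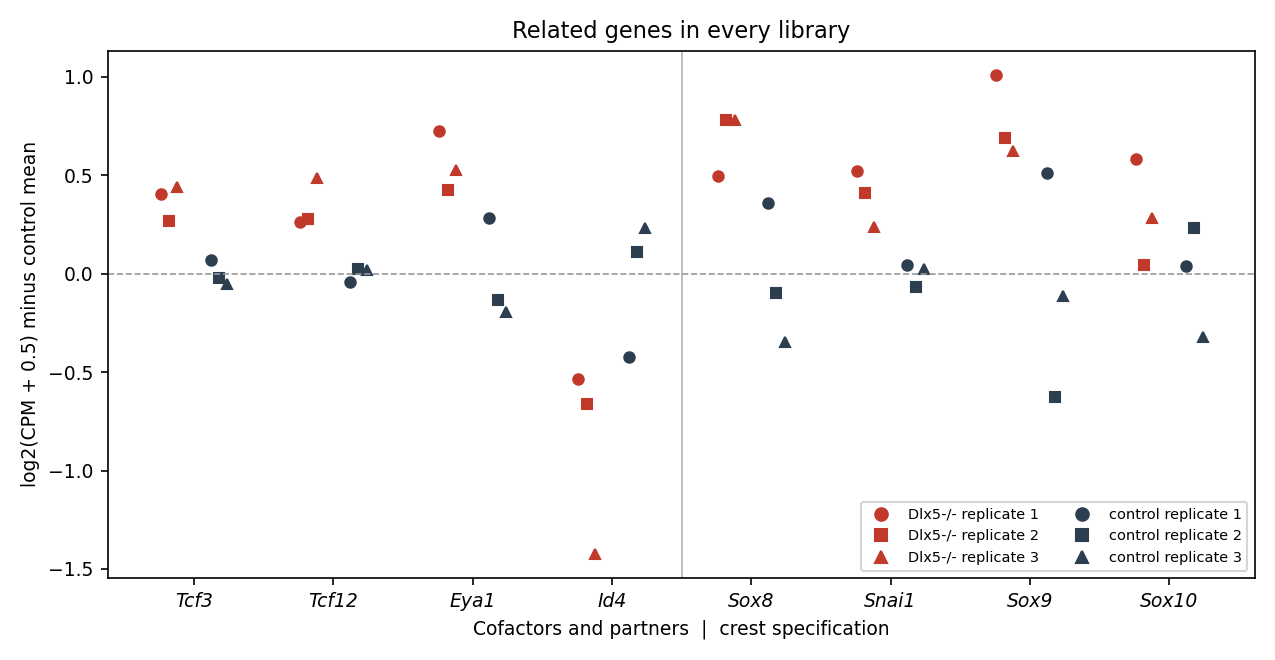
Log2(CPM + 0.5) of partners and crest specification genes in each library, set against the control mean; the 4 genes of each list with the smallest p are shown, with Dlx5-/- (red) left of control (dark). Tcf3, Tcf12, Eya1, Sox8, Snai1 and Sox9 are higher in all 3 Dlx5-/- libraries than in any control, and Id4 is lower.

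Other cell types also differed in their marker sums between these libraries. Mesenchyme markers had a median log2 fold change of -0.05, with 6 estimates above 0, 8 below and 0 called. Col1a1, a fibrillar collagen, measured 1778, 3222 and 1072 CPM in Dlx5-/- libraries, against 2807, 2635 and 3064 CPM in controls. Pdgfra, a receptor of crest mesenchyme, averaged 375.8 ± 58.4 CPM in Dlx5-/- and 300.6 ± 23.0 CPM in control libraries (SD, n = 3 each; log2 fold change 0.32; adjusted p = 0.308, edgeR). In Dlx5-/- replicate 3 Pdgfra was at its highest, 443 CPM, while Col1a1 was at its lowest. Skeletal muscle markers summed to 849, 2279 and 1524 CPM in Dlx5-/- libraries and to 785, 1094 and 669 CPM in controls. Pituitary markers summed to 66.3, 67.6 and 9.51 CPM in Dlx5-/- and to 117, 203 and 192 CPM in controls. Hox genes, made by tissue behind the face, summed to 7.46, 7.5 and 32.6 CPM in Dlx5-/- and to 2.92, 4.22 and 2.59 CPM in controls. The part of these in the values of the 10 factors was not tested.

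**Figure D5:**
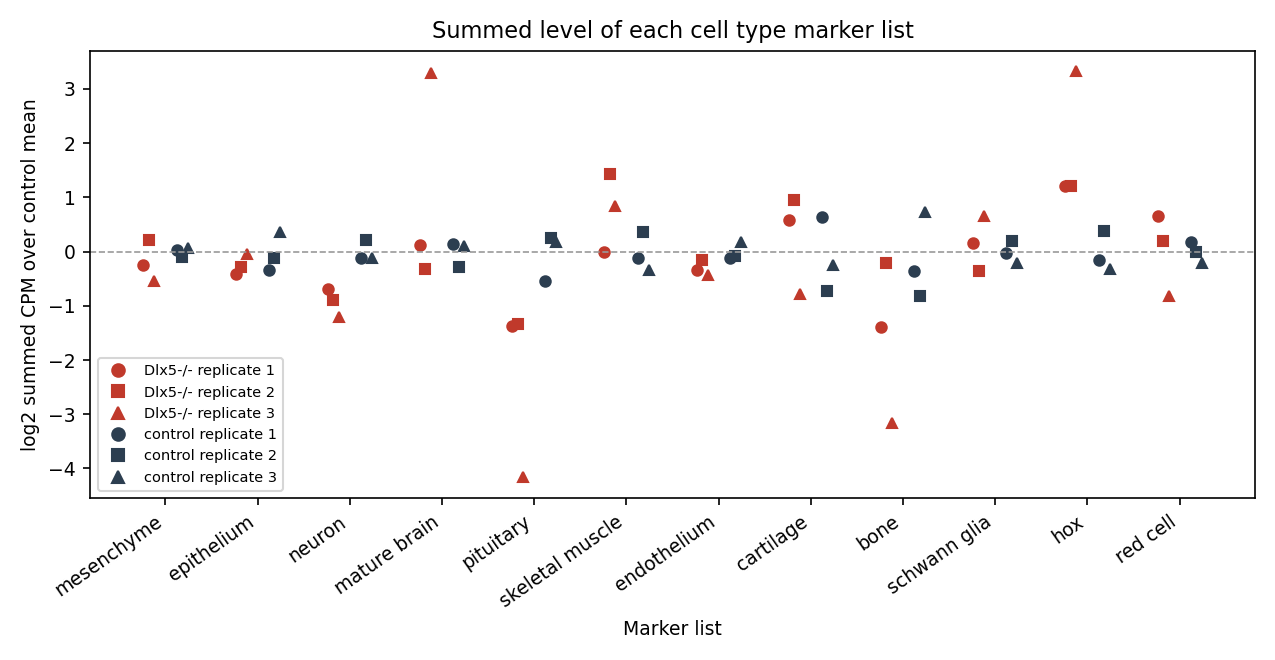
Log2 of the summed CPM of each marker list over the control mean, with Dlx5-/- libraries (red) left of controls (dark). Dlx5-/- replicate 3 lies apart for the mature brain, pituitary, bone and hox lists, at 367 CPM of mature brain markers. That library is also the lowest for red cell markers, at 1345 CPM, and the highest for schwann glia markers, at 484 CPM. The mesenchyme list lies between 7691 and 12944 CPM in all 6 libraries.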

How the data were processed

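The authors deposited estimated counts, 1 value per gene and library. STAR 2.4.1d, Partek and build mm10 are named, per the submitters' processing notes; libraries were made with a TruSeq mRNA kit, per the labels' protocols. Annotation, counting settings and strand use were not given in the sources used here. Columns differ in their totals although the table is called normalized, and of values above 0.5, 64.5% were whole within 0.001. The table has 1 further column, which fits no labelled sample and was left out.

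Counts were rounded, and 16218 genes with a mean of at least 1 CPM were tested with edgeR 4.0.16 (R 4.3.3): TMM factors, quasi-likelihood, no block, Benjamini-Hochberg adjustment. SEs come from the F statistic. Fits with 1 library left out reused this filter. Alternatives used limma 3.58.1 on log2(CPM + 1), DESeq2 1.42.0, other scalings and filters, a replicate block, and tables without ribosomal RNA rows. Scripts were tested on simulated data. Gene coordinates and exon lengths are GENCODE M21 (GRCm38).

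The factors and lists were chosen with earlier results of these data known. Genes named are the 10 factors, Dlx5, up to 4 per related list by smallest p and up to 2 per marker list by highest mean; Pdgfra and the overlapping genes were added after their values were seen. A few genes named by it are left out here.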

Additional observations from a re-analysis of the deposited data

How the results depend on the processing

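Alx1 had the fewest counts, 69 over the Dlx5-/- and 120 over the control libraries, and also a wide spread between libraries. Of the recomputed log2 fold changes of the 10 factors and Dlx5, 156 kept their sign and side of the threshold. Of the rest, 2 changed sign, 2 gained a call and 4 lost one. No factor was called in the test as reported, so staying uncalled says little about how stable a factor's estimate was. Prrx2 ran from -0.37 to 0.08 with 1 library left out, reaching 0.08 without Dlx5-/- replicate 3 and 0.01 without control replicate 3; the cause was not tested. The number of factors called was 1 (Prrx1) with no filter and 1 (Prrx1) with DESeq2, and 0 otherwise; the filter of 5 CPM removed Alx1.

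Genes called, 1 in the test as reported, numbered 41 with library totals without TMM, 679 with no filter, 74 with a filter of 5 CPM, 97 with limma-trend, 501 with DESeq2, and 0 to 164 with 1 library left out, the 164 without Dlx5-/- replicate 3; the cause was not tested. Removing ribosomal RNA rows, also with further rows chosen after seeing the data, left 1. Dlx5 lost its call without Dlx5-/- replicate 1 (-3.74; adjusted p = 0.0949, edgeR), Dlx5-/- replicate 2 (-4.15; 0.0631) or control replicate 3 (-4.04; 0.107).

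Same-numbered libraries did not deviate together (correlations -0.0138, -0.0107 and 0.0198). Of 3 Dlx5-/- libraries, 0 correlated best with the control of their number. The labels name no pairing, and these correlations cannot exclude one. With a replicate block 0 genes were called; Dlx5 was at -3.88 (adjusted p = 0.0620, edgeR) and Prrx1 at 0.45 (adjusted p = 0.282, edgeR). All 36 recomputed differences in pair ratios kept their sign.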
